A study of Mus musculus with 10 samples.

Results

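The 45 translation initiation factor genes expressed in mouse striatum were compared between R6/2 and control libraries. The members were the protein-coding genes whose mouse symbol starts with Eif and whose mean was at least 1 FPKM over all 10 libraries, out of 47632 genes in the deposited table. FPKM is a fragment count divided by transcript length and by the library's mapped fragments. Of 55 protein-coding genes with such a symbol, 4 eIF2 kinase genes (Eif2ak1 to Eif2ak4) and the Y-linked Eif2s3y were left out by the rule. A further 5 lay below the minimum. The mean over the 10 libraries chose the members, so mean levels are given here as a description with no test.

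The study set R6/2 mice against controls. R6/2 is a Huntington's disease model that carries a transgene with a fragment of the human huntingtin gene and its expanded CAG repeat. The R6/2 mice were hemizygous for it. The controls were labelled as wild type and isogenic, and both groups were 11 weeks old. Each group had 5 libraries made from total striatal RNA. Whether the libraries stem from separate animals is not stated in the labels, so p-values measure only the spread between these libraries.

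Translation initiation loads a ribosome at the start codon of an mRNA. The factor eIF4F, made of the cap-binding protein eIF4E, the scaffold eIF4G and the helicase eIF4A, prepares the mRNA, while eIF2 bound to GTP brings the initiator tRNA to the small ribosomal subunit together with eIF3, eIF1, eIF1A and eIF5. Phosphorylation of eIF2 turns it into an inhibitor of its own exchange factor eIF2B, which slows most initiation and is the core of the integrated stress response. In neurons these steps govern the protein synthesis that long-lasting synaptic change needs.

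Several factors are encoded by a pair of related genes, and the results on pairs depend on the letters that tell their reads apart. Stretches of 3 pairs are printed to show how many letters set the copies apart. They were read 5′ to 3′ on the coding strand from the GENCODE transcripts of GRCm38, with capitals at each base that differs from the paired gene. For Eif1 on chromosome 11 and Eif1b on chromosome 9 the first 90 coding bases are shown, and 13 of them differ. For Eif5a on chromosome 11 and Eif5a2 on chromosome 3, coding bases 106 to 195 surround codon 50, the lysine that is turned into hypusine in the protein, and 13 of 90 differ. For Eif2s3x on chromosome X and Eif2s3y on chromosome Y the first 90 coding bases are shown, and 16 differ.
Eif1: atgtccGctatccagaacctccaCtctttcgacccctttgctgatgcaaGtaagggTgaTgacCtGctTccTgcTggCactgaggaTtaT
Eif1b: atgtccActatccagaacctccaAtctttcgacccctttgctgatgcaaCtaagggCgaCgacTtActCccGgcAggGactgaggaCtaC
Eif5a: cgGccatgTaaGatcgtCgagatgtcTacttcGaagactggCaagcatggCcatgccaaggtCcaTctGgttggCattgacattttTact
Eif5a2: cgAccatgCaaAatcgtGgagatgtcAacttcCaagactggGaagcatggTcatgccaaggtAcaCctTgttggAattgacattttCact
Eif2s3x: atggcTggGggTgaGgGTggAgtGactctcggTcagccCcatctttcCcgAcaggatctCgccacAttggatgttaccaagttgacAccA
Eif2s3y: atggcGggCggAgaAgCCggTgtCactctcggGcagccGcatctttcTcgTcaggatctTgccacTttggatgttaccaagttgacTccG

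Over whole coding sequences Eif1 and Eif1b shared 81.3% of bases, and their longest run of identical bases was 25. Eif5a and Eif5a2 shared 72.7% of bases with a longest run of 14. Eif2s3x and Eif2s3y shared 86.3% of bases with a longest run of 34, although 97.9% of the encoded residues were the same. Of the differences in the printed windows, 10 of 13 for Eif1 and Eif1b, 13 of 13 for Eif5a and Eif5a2 and 15 of 16 for Eif2s3x and Eif2s3y fall on the last base of a codon. The pair Eif3j1 and Eif3j2 was different, with 99.2% identical coding bases and an identical run of 1107 bases within the transcripts, so the split of reads between them is uncertain.

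No initiation factor transcript passed the test of R6/2 against control striatum, from the eIF4F genes through eIF2 and eIF2B to eIF3. Of the 45, 0 passed as higher and 0 as lower in R6/2 (limma on log2(FPKM + 1), Benjamini-Hochberg adjusted p under 0.05 over 15905 tested genes, lowest adjusted p 0.0586). Among all tested genes 2244 (14.1%) passed, 795 higher (5.0%) and 1449 lower (9.11%). Log2 changes are given as R6/2 minus control of log2(FPKM + 1), a scale that makes changes of low genes look smaller. The changes ran from −0.31 for Eif4e2 to 0.63 for Eif2b2, with 31 above and 14 below 0. Their median was 0.06 and the median over all tested genes was 0.00, while the median size of the change was 0.15 for the factors and 0.26 over all tested genes.

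The 95% intervals bound how large a change the FPKM values as deposited allow. They do not cover the choice of scaling between libraries, which shifts the estimates, as given below. For 37 of 45 factors (82.2%) the whole interval lay within 1.5-fold in either direction, as it did for 38.8% of all tested genes. For 44 of 45 (97.8%) it lay within 2-fold, against 71.0% of all tested genes, and Eif2b2 was the exception. The fold estimate itself exceeded 1.5 for Eif2b2 alone (2.22% of the factors), against 21.8% of all tested genes. The factors were also expressed at a higher level than most genes, with a median of 16.7 FPKM against 6.28 FPKM, and their intervals were narrower, with a median width of 0.53 against 0.78 on the log2 scale. In no factor were the R6/2 and control libraries free of overlap, while 2080 of all tested genes (13.1%) had no overlap. At an unadjusted p under 0.05, 13 factors would be counted, 9 higher and 4 lower, against 4367 of all tested genes (27.5%), of which 1909 (12%) were higher and 2458 (15.5%) lower.

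**Figure D1:**
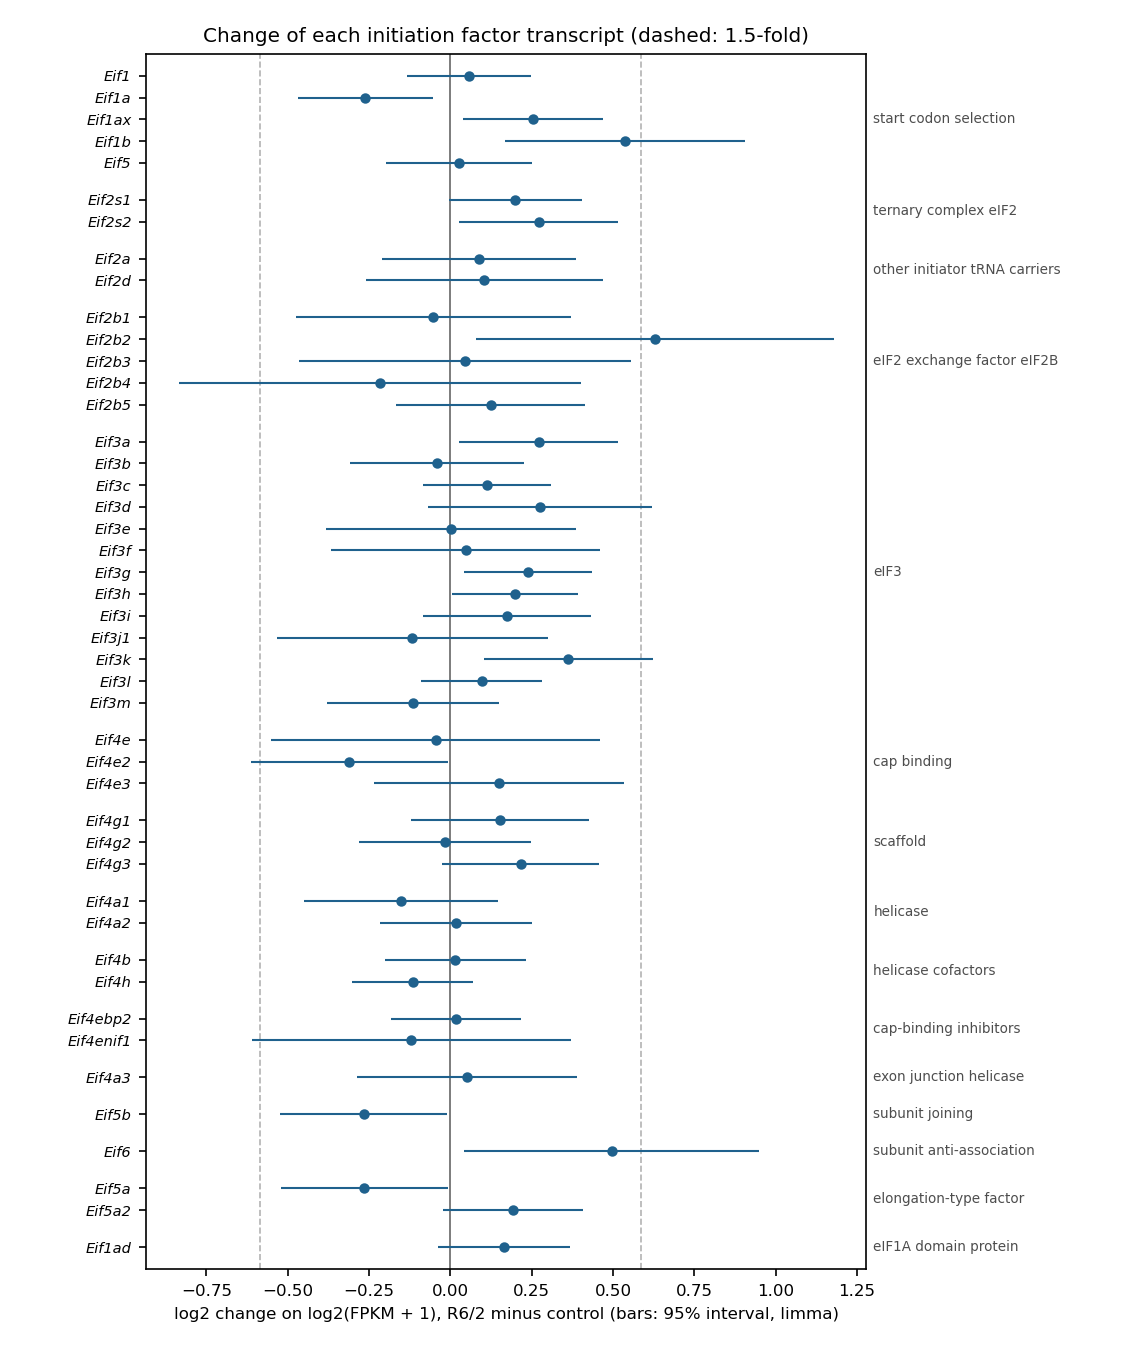
Each point is the log2 change of an initiation factor, R6/2 minus control on log2(FPKM + 1), with its 95% interval from limma; rows are grouped by role and dashed lines mark 1.5-fold. With the values as deposited, the intervals of 37 of 45 factors lie between the dashed lines, and Eif2b2 at 0.63 reaches farthest to the right.

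The count of 0 depended on how the libraries were scaled. Protein-coding genes held 193203 to 202906 FPKM in R6/2 libraries and 211209 to 219426 FPKM in control libraries, with no overlap. When each library was rescaled to the same total over protein-coding genes, 8 factors passed, all higher in R6/2, against 9.55% of all tested genes called higher and 16.7% called in either direction. They were Eif1ax, Eif1b, Eif2s1, Eif2s2, Eif3a, Eif3g, Eif3h and Eif3k. That scaling moved the median of all genes to 0.09 and that of the factors to 0.17, so relative to all genes the factors lay 0.08 higher, against 0.06 higher as deposited. Over all genes it changed the share of calls that were lower in R6/2 to 42.7%, against 64.6% as deposited. With quantile normalization Eif1b, Eif3a, Eif3g and Eif3k passed as higher, beside 6.99% of all genes called higher, and 53.5% of all calls were lower. Eif1b alone passed with libraries weighted by their quality, where 5.78% of all genes were called higher.

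**Figure D2:**
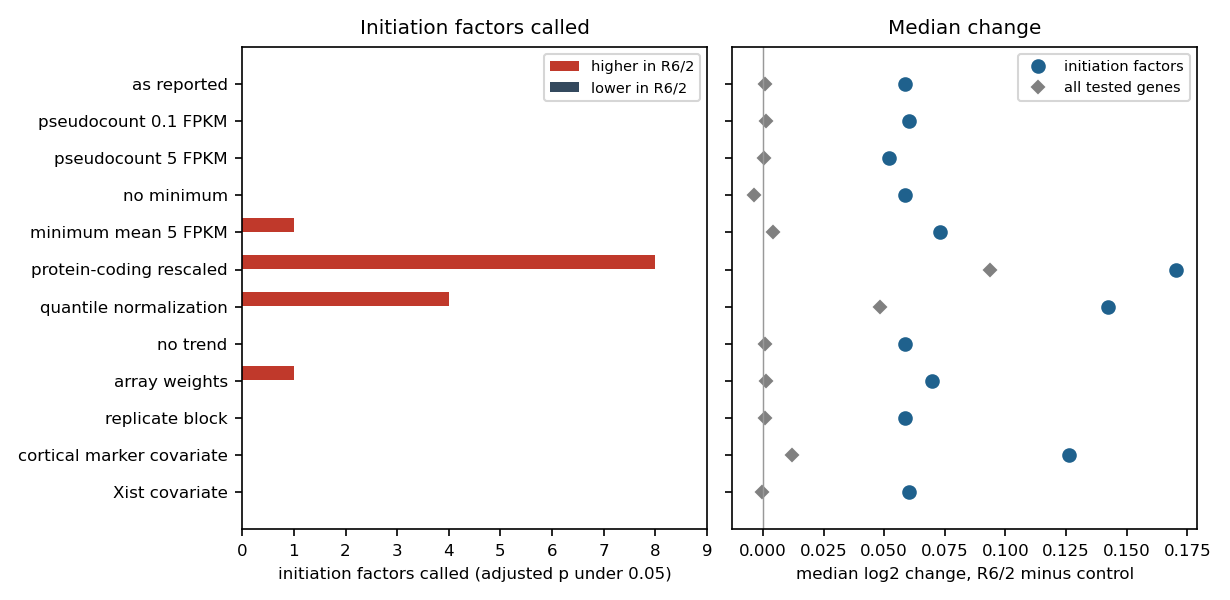
Bars on the left give how many initiation factors passed an adjusted p of 0.05 under each setting drawn; points on the right give the median log2 change of the initiation factors (circles) and of all tested genes (diamonds). The counts are 8 and 4 under the protein-coding and quantile scalings, 1 with a minimum of 5 FPKM and with array weights, and 0 in the other rows drawn (settings that leave out a library are not drawn), and under both scalings the median of all genes lies above that of the values as deposited.

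Summed over its 45 genes the group held 1174 ± 71.3 FPKM in R6/2 libraries and 1131 ± 62.1 FPKM in control libraries (SD, n = 5 each). As a share of all protein-coding FPKM this was 0.591 ± 0.0307% in R6/2 and 0.526 ± 0.0212% in controls, with ranges of 0.544 to 0.63% and 0.493 to 0.551%. The ranges overlapped through R6/2 5 and Control 1, and the lowest R6/2 share was above those of the other 4 controls. The protein-coding totals that divide this share were lower in R6/2, as given above, so the share differed more than the sum did. Because the tissue was sequenced in bulk, a changed mix of cells and a changed amount of RNA per cell cannot be told apart.

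The most abundant factor was Eif4g2, a relative of the eIF4G scaffold that lacks the eIF4E-binding region and works in cap-independent initiation. Its FPKM was 235, 304, 288, 230 and 229 in R6/2 libraries, against 281, 258, 286, 208 and 264 in control libraries. It alone made up 21.9 ± 2.04% of the group's FPKM in R6/2 and 22.9 ± 1.82% in controls. The groups overlapped throughout, with a log2 change of −0.02 (SE 0.12, limma adjusted p = 0.957), whose sign turned to positive under both scalings above.

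Second came Eif4a2, the helicase gene that predominates over Eif4a1 in brain. It had 68, 91.9, 75.2, 95.7 and 85 FPKM in R6/2 libraries, against 79.4, 80.8, 75.5, 79.8 and 93.2 FPKM in control libraries. R6/2 libraries were at both ends of the range, and the log2 change was 0.02 (SE 0.10, limma adjusted p = 0.944). The third was Eif3c, a core subunit of eIF3, with 52.4, 65.9, 57.4, 59.3 and 55.4 FPKM in R6/2 and 63.4, 49.9, 52.0, 52.0 and 51.3 FPKM in controls. All 5 R6/2 values exceeded 4 of the controls, but Control 1 was second highest of all, and the change of 0.11 (SE 0.09) did not pass (limma adjusted p = 0.463).

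**Figure D3:**
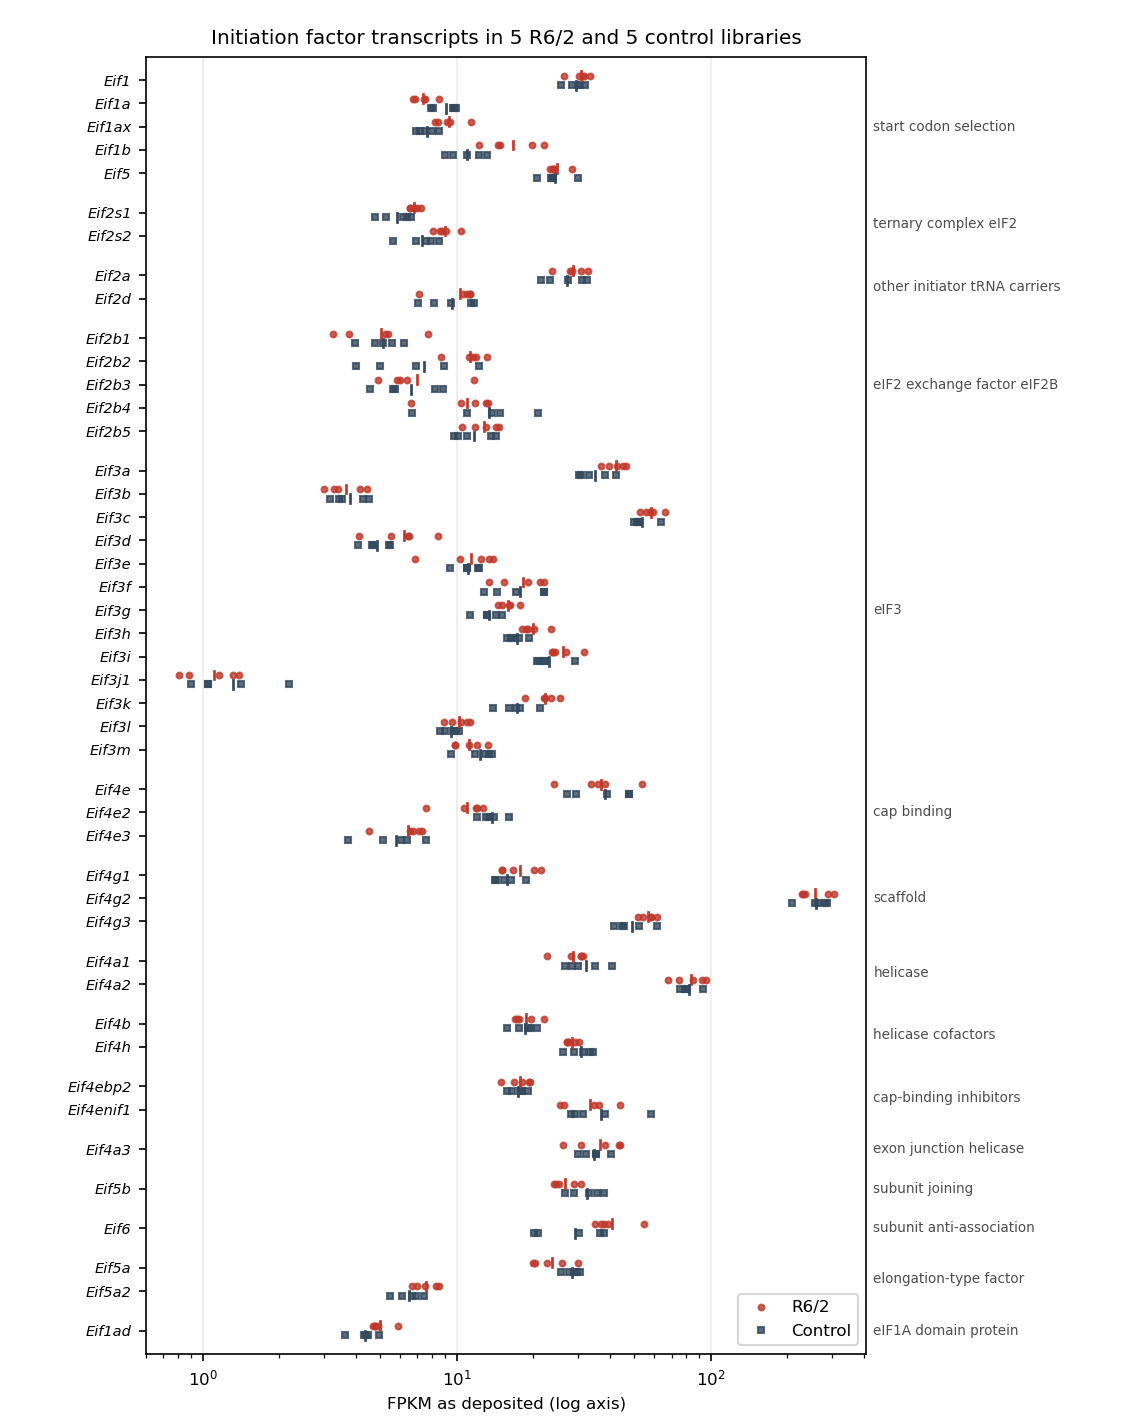
FPKM as deposited (log axis) of the 45 initiation factors in 5 R6/2 libraries (circles) and 5 control libraries (squares), with group means as vertical bars, grouped by role. Levels span from a mean of 1.22 for Eif3j1 to 258 for Eif4g2, and the groups overlap in each row.

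Among the cap-binding proteins, Eif4e, the main cap receptor, averaged 37.1 ± 10.7 FPKM in R6/2 and 38.2 ± 9.69 FPKM in controls (SD, n = 5 each), a log2 change of −0.05 (limma adjusted p = 0.931). Eif4e2, a cap-binding relative that does not bind eIF4G and can hold mRNAs in a repressed state, averaged 11.0 ± 2.06 FPKM in R6/2 and 13.7 ± 1.52 FPKM in controls. Its change of −0.31 (SE 0.14) was the lowest of all 45 factors and did not pass the test (limma adjusted p = 0.172). Eif4e3 averaged 6.44 ± 1.11 FPKM in R6/2 and 5.76 ± 1.43 FPKM in controls. Eif4e1b, the relative known from oocytes, was listed at 0 in all 10 libraries.

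The remaining scaffold genes were Eif4g1, the canonical form, at 17.7 ± 3.0 FPKM in R6/2 and 15.7 ± 1.86 FPKM in controls, and Eif4g3 at 56.7 ± 3.83 FPKM in R6/2 and 49.1 ± 7.98 FPKM in controls. Neither passed, with log2 changes of 0.15 and 0.22. FPKM is scaled by transcript length, but the annotation behind these lengths is not stated, so levels of different genes compare only roughly. As deposited, Eif4g3 was above Eif4g1 in each of the 10 libraries, and Eif4a2 was above Eif4a1 in each of them. Eif4a2 shares 194 of its 5338 exon bases with Rfc4 on the other strand. Both Eif4a2 and Eif4a1 also share exon bases with small nucleolar RNA genes on the same strand. Eif4a1 averaged 28.7 ± 3.63 FPKM in R6/2 and 32.2 ± 5.80 FPKM in controls. The log2 change was 0.02 for the helicase cofactor gene Eif4b, −0.12 for Eif4h, also a cofactor gene, and 0.05 for Eif4a3, a relative of eIF4A in the exon junction complex. The lowest limma adjusted p among these helicase and cofactor genes was 0.417.

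The proteins that hold eIF4E away from eIF4G were represented mainly by Eif4ebp2, the form most common in brain, with 17.7 ± 1.93 FPKM in R6/2 and 17.4 ± 1.31 FPKM in controls. The 95% interval of its fold change ran from 0.88 to 1.16. Eif4ebp1 lay below the minimum, with 0.327, 0.877, 0.301, 0.497 and 0 FPKM in R6/2 and 0.15, 0.337, 1.19, 0.188 and 1.06 FPKM in controls. Eif4ebp3 averaged 0.262 FPKM over the 10 libraries. Eif4enif1, which carries eIF4E into the nucleus, averaged 33.4 ± 7.65 FPKM in R6/2 and 37.0 ± 12.4 FPKM in controls, where Control 5 stood at 58.1 and the other 4 at 28.2 to 38.2.

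The largest complex was eIF3, the scaffold on the small subunit that links it to eIF4G. Of its 13 member genes 10 had a positive change and 3 a negative one, with a median of 0.11, and none passed. Per library the 13 summed to 246.6 ± 15.4 FPKM in R6/2 (235.0 to 273.7) and 220.0 ± 15.1 FPKM in controls (207.8 to 245.2). The ranges overlapped through Control 1 alone, since the other 4 controls lay below the lowest R6/2 library. Subunit levels were far from equal, with means over the 10 libraries between 1.22 FPKM for Eif3j1 and 55.9 FPKM for Eif3c, and the next lowest, Eif3b, at 3.72 FPKM.

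The eIF3 subunits Eif3k, Eif3a, Eif3g and Eif3h, all with an unadjusted p under 0.05, were picked after their values were seen. Eif3k, a non-core subunit, had 18.6, 22.1, 22.2, 23.4 and 25.4 FPKM in R6/2 and 21.2, 13.9, 17.1, 16.1 and 17.7 FPKM in controls. R6/2 1 was below Control 1, and the other 4 R6/2 libraries were above all controls. Its log2 change was 0.36 (SE 0.12, limma adjusted p = 0.0686). Eif3a, the largest core subunit, averaged 42.2 ± 3.86 FPKM in R6/2 and 35.0 ± 5.26 FPKM in controls (change 0.27, limma adjusted p = 0.141). The RNA-binding subunit gene Eif3g averaged 15.9 ± 1.25 FPKM in R6/2 and 13.4 ± 1.40 FPKM in controls (change 0.24, limma adjusted p = 0.105), and Eif3h 19.9 ± 2.11 FPKM in R6/2 and 17.2 ± 1.33 FPKM in controls (change 0.20, limma adjusted p = 0.168).

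The other eIF3 genes had smaller or less steady differences. Eif3d, whose protein can itself bind the cap of some mRNAs, averaged 6.20 ± 1.59 FPKM in R6/2 and 4.86 ± 0.582 FPKM in controls (change 0.28, limma adjusted p = 0.289), and 2151 of its 4968 exon bases are shared with the antisense gene Gm17638. Changes of Eif3i, Eif3l, Eif3f, Eif3e, Eif3b and Eif3m lay between −0.11 and 0.17. Eif3j1, just inside the minimum at a mean of 1.22 FPKM, had a change of −0.12 (SE 0.19), and 1107 of its 5830 exon bases are shared with Spg11 on the other strand. Its near copy Eif3j2, just outside at 0.527 FPKM, was not tested.

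Start codon selection is the task of eIF1, eIF1A and eIF5, and here the balance between a pair of related genes differed between the groups. Eif1a and Eif1ax both encode eIF1A, which keeps the scanning ribosome open, and the encoded residues are 98.6% identical. Eif1a had 8.50, 6.82, 6.72, 7.43 and 7.48 FPKM in R6/2, against 8.08, 9.65, 9.78, 9.96 and 7.88 FPKM in controls. Eif1ax had 8.44, 9.40, 9.12, 8.19 and 11.4 FPKM in R6/2, against 7.18, 8.50, 7.49, 7.96 and 6.93 FPKM in controls. Eif1a was therefore the more abundant of the pair in all 5 controls and about level with or below Eif1ax in R6/2. On their own the changes were −0.26 and 0.25 and neither passed (limma adjusted p = 0.0963 and 0.114).

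The log2 ratio of Eif1a over Eif1ax averaged −0.29 ± 0.23 in R6/2 and 0.22 ± 0.09 in controls (SD, n = 5 each). It was 0.01, −0.41, −0.39, −0.13 and −0.55 in R6/2 libraries, against 0.15, 0.17, 0.34, 0.29 and 0.16 in control libraries. Each R6/2 value was below each control value. Among single genes 13.1% of all tested had no overlap, and the share among ratios of other gene pairs was not computed. The difference was −0.52 (SE 0.11), with a two-sided exact permutation p of 0.00794, the smallest that 5 against 5 allows, and an adjusted p of 0.0357 over the 9 related pairs tested (exact permutation test, Benjamini-Hochberg). A ratio within a library does not depend on the scaling between libraries apart from the pseudocount of 1 FPKM, and it shows unequal change, not which of the pair changed.

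The other related pair that passed was Eif5a over Eif5a2. Their product eIF5A, named as an initiation factor, carries the hypusine residue and acts mainly in elongation and termination. Eif5a had 22.7, 20.4, 25.9, 30.1 and 20 FPKM in R6/2, against 29.8, 25.8, 28.8, 30.6 and 27.6 FPKM in controls. Eif5a2 had 6.96, 6.68, 8.50, 8.25 and 7.48 FPKM in R6/2, against 6.09, 6.90, 6.69, 5.47 and 7.41 FPKM in controls. Eif5a was the major form in every library, and 3 of its R6/2 values lay below all controls.

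The log2 ratio of Eif5a over Eif5a2 was 1.57, 1.48, 1.5, 1.75 and 1.31 in R6/2 libraries, against 2.12, 1.76, 1.95, 2.29 and 1.77 in control libraries. The groups did not overlap, though R6/2 4 at 1.75 came next to Control 2 at 1.76. The difference was −0.46 (SE 0.13; exact permutation p = 0.00794, adjusted p = 0.0357 over the 9 pairs). The single genes changed by −0.26 and 0.19 and did not pass (limma adjusted p = 0.169 and 0.239). With a pseudocount of 5 FPKM neither ratio passed (exact permutation adjusted p = 0.0714 for Eif1a over Eif1ax and 0.107 for Eif5a over Eif5a2). Eif1a over Eif1ax still had the smallest p that 5 against 5 allows, but 1 pair alone at that p cannot pass over 9 pairs. With any 1 library left out other than R6/2 4 both missed the threshold, while the differences kept their sign. The groups stayed free of overlap each time, since leaving out a library cannot make separated groups overlap. With 5 against 4 libraries the exact permutation p moves in coarse steps up from 0.00794. These misses therefore do not show that a ratio rests on 1 library.

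**Figure D4:**
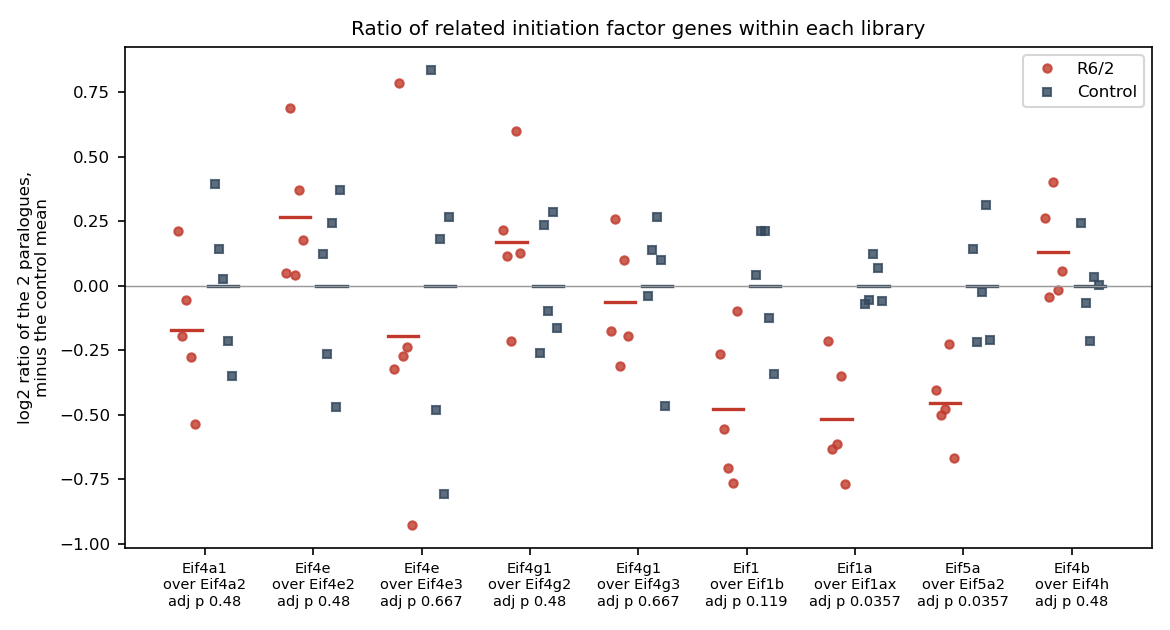
Log2 ratio of 2 related genes within each library, minus the control mean of that ratio, for the 9 pairs tested; circles are R6/2 libraries, squares control libraries and bars group means. The R6/2 points lie wholly below the control points for Eif1a over Eif1ax and for Eif5a over Eif5a2, and overlap with them in the other 7 pairs. How often ratios of other gene pairs are free of overlap was not computed (single tested genes: 13.1%).

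Eif1b, the relative of the start codon gatekeeper gene Eif1, had the lowest p of the 45 and was picked for that after its values were seen. It had 14.5, 14.8, 19.7, 22.0 and 12.2 FPKM in R6/2, against 11.0, 9.01, 9.69, 13.1 and 12.2 FPKM in controls. The lowest R6/2 library overlapped with the controls and the other 4 were above all of them. Its log2 change was 0.54 (SE 0.17, 95% interval 0.17 to 0.91, limma adjusted p = 0.0586). It passed as higher when the minimum mean was raised to 5 FPKM (limma adjusted p = 0.0461), where 7.18% of all tested genes were called higher and 19.8% in either direction. The antisense gene D830035M03Rik shares 143 of its 1125 exon bases.

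Eif1 itself averaged 30.7 ± 2.64 FPKM in R6/2 and 29.4 ± 2.47 FPKM in controls. The log2 ratio of Eif1 over Eif1b was 0.87 ± 0.29 in R6/2 and 1.35 ± 0.24 in controls (SD, n = 5 each), a difference of −0.48 (SE 0.17) that did not pass over the 9 pairs (exact permutation p = 0.0397, adjusted p = 0.119). Eif5, whose product stimulates GTP hydrolysis by eIF2, had a change of 0.03 (SE 0.10). Of the 6 other pairs (Eif4a1 over Eif4a2, Eif4e over Eif4e2 and over Eif4e3, Eif4g1 over Eif4g2 and over Eif4g3, and Eif4b over Eif4h) the adjusted p ran from 0.48 to 0.667 (exact permutation test).

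The carrier of the initiator tRNA, eIF2, has an alpha subunit from Eif2s1, a beta subunit from Eif2s2 and a gamma subunit from Eif2s3x or Eif2s3y. Eif2s1, which holds the regulated phosphorylation site, averaged 6.81 ± 0.295 FPKM in R6/2 and 5.84 ± 0.800 FPKM in controls, a change of 0.20 (SE 0.09, limma adjusted p = 0.192). Eif2s2 averaged 8.96 ± 0.876 FPKM in R6/2 and 7.29 ± 1.11 FPKM in controls, a change of 0.27 (SE 0.11, limma adjusted p = 0.14). Both passed as higher only where protein-coding totals were made equal.

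The gamma subunit was found almost entirely under the Y-linked gene. Eif2s3x lay below the minimum, with 0.32, 0.19, 0.727, 0.337 and 0.46 FPKM in R6/2, against 0.496, 0.437, 0.826, 0.488 and 0.574 FPKM in controls. Eif2s3y had 33.0, 30.4, 37.1, 29.1 and 36.1 FPKM in R6/2, against 23.0, 24.7, 26.9, 17.4 and 27.4 FPKM in controls. Every R6/2 library was above every control, and the change was 0.47 (SE 0.13, limma adjusted p = 0.0379). The difference in level between the copies was seen in all 10 libraries, and the sources used here do not say how reads that fit both were shared.

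The Y-linked gene's call was a narrow one. Eif2s3y missed the threshold with any of 6 libraries left out (R6/2 1, 2, 3 or 5, Control 1 or 2, limma adjusted p of 0.0551 to 0.0834). It also missed with no minimum (limma adjusted p = 0.0587) and with the mean of the cortical markers as a covariate (0.263). That covariate did not overlap between the groups, so it cannot be separated from the genotype. Xist, which marks an inactive X chromosome, ranged from 0.0339 to 2.44 FPKM in R6/2 and from 0.03 to 1.06 FPKM in controls.

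**Figure D5:**
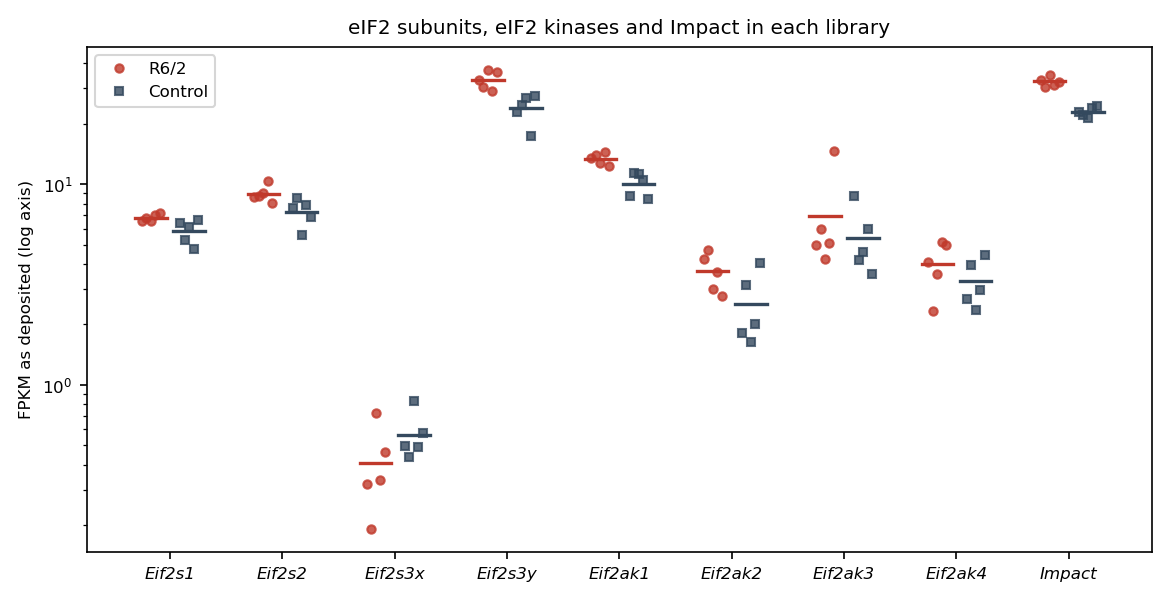
FPKM as deposited (log axis) of the eIF2 subunit genes, the 4 eIF2 kinase genes and Impact in 5 R6/2 libraries (circles) and 5 control libraries (squares), with group means as bars. Eif2s3x lies below 1 FPKM in all libraries and Eif2s3y between 17.4 and 37.1. The groups do not overlap for Eif2s3y, Eif2ak1 and Impact (all tested genes: 13.1% without overlap), and Impact was named because it passed the test.

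The eIF2 exchange factor eIF2B, built from 5 subunits, held the least steady transcripts of the group. The beta subunit gene Eif2b2, named for the largest change after its values were seen, had 11.6, 11.2, 8.69, 11.9 and 13.2 FPKM in R6/2, against 6.92, 8.90, 4.02, 12.2 and 4.98 FPKM in controls. Its controls varied by a coefficient of variation of 44.2%, and Control 4 was second highest of the 10 libraries. The change was 0.63 (SE 0.25, 95% interval 0.08 to 1.18, limma adjusted p = 0.129), and without Control 4 it was 0.81, past the threshold (limma adjusted p = 0.0365).

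The other eIF2B genes showed no shared direction. Eif2b4 averaged 11.0 ± 2.70 FPKM in R6/2 and 13.4 ± 5.22 FPKM in controls, a change of −0.22 (SE 0.28), with a control coefficient of variation of 38.9%. Eif2b3 averaged 6.95 ± 2.70 FPKM in R6/2, where R6/2 2 stood at 11.7 and the other 4 at 4.9 to 6.36, and 6.59 ± 1.83 FPKM in controls. Eif2b5, the catalytic subunit gene, had a change of 0.12 (SE 0.13) and Eif2b1 one of −0.05 (SE 0.19). The limma adjusted p of these 4 ran from 0.58 to 0.931. Of the 2 genes for other carriers of initiator tRNA, Eif2a had a change of 0.09 and Eif2d one of 0.10, with limma adjusted p of 0.719 and 0.726.

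Of the factors for late steps, Eif5b, which joins the ribosomal subunits, averaged 26.7 ± 3.02 FPKM in R6/2 and 32.5 ± 4.72 FPKM in controls (change −0.27, SE 0.11, limma adjusted p = 0.166). It shares 1643 of its 9753 exon bases with Rev1 on the other strand. Eif6, which keeps free large subunits from joining and serves in their assembly, averaged 40.7 ± 7.84 FPKM in R6/2 and 29.2 ± 8.39 FPKM in controls (change 0.50, SE 0.20, limma adjusted p = 0.143). R6/2 1 stood at 54.4 and the other 4 R6/2 libraries at 34.9 to 39.5, while controls ran from 20.1 to 37.8. Eif1ad, which encodes a nuclear protein with an eIF1A-like domain, averaged 5.00 ± 0.508 FPKM in R6/2 and 4.35 ± 0.462 FPKM in controls (change 0.17, limma adjusted p = 0.284).

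The kinases that phosphorylate eIF2 alpha are known for sensing heme (Eif2ak1), double-stranded RNA (Eif2ak2), unfolded protein (Eif2ak3) and uncharged tRNA (Eif2ak4). Of the 4 genes Eif2ak1 rose, with 13.5, 13.9, 12.7, 14.5 and 12.3 FPKM in R6/2, against 8.74, 11.4, 11.3, 10.5 and 8.39 FPKM in controls. The groups did not overlap and the change was 0.39 (SE 0.10, limma adjusted p = 0.0285). Eif2ak1 shares 487 of its 5670 exon bases with Aimp2 and 172 with Ankrd61, both on the other strand. The call was lost with any of 4 libraries left out (R6/2 1, 2 or 4, or Control 1, limma adjusted p of 0.0575 to 0.0617). For Eif2ak2, Eif2ak3 and Eif2ak4 the changes of 0.43, 0.24 and 0.22 did not pass (limma adjusted p = 0.206, 0.665 and 0.533).

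In the list of eIF2 alpha phosphorylation genes 2 of 9 tested passed, both higher, beside 5.0% of all tested genes called higher. Beside Eif2ak1 this was Impact, whose product restrains the kinase encoded by Eif2ak4. Impact had 33.2, 30.6, 35.0, 31.3 and 32.5 FPKM in R6/2, against 22.9, 22.1, 21.3, 23.9 and 24.6 FPKM in controls. Its groups were far apart, with a change of 0.48 (SE 0.07, limma adjusted p = 0.000996). With the cortical markers as a covariate it missed the threshold (limma adjusted p = 0.0559). The changes of the phosphatase subunit gene Ppp1r15b, 0.06, and of the kinase inhibitor gene Dnajc3, −0.10, did not pass (limma adjusted p = 0.823 and 0.451).

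Among 19 helpers of initiation 1 passed as lower and none as higher, beside 9.11% of all tested genes called lower and 5.0% higher. It was Cyfip2, whose product belongs to the WAVE actin complex and is a relative of an eIF4E-binding protein, with 99.0, 110, 104, 82.1 and 104 FPKM in R6/2, against 138, 145, 139, 139 and 133 FPKM in controls. All R6/2 libraries were below all controls, and the change was −0.48 (SE 0.08, limma adjusted p = 0.00454). Pabpc1, the cytoplasmic poly(A)-binding protein, averaged 89.4 ± 5.20 FPKM in R6/2 and 112 ± 16.6 FPKM in controls (change −0.31, limma adjusted p = 0.0813). Gigyf2 and Paip1 went the other way and did not pass either (changes 0.24 and 0.58, limma adjusted p = 0.0691 and 0.076). The median change of the helpers was 0.02.

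Of 12 tested genes of mTOR and MNK signalling, which act on the eIF4E inhibitors and on eIF4E, 2 passed as lower and none as higher, beside 9.11% of all tested genes called lower and 5.0% higher. Deptor, an inhibitor that binds mTOR, had 3.34, 3.90, 4.16, 3.5 and 3.8 FPKM in R6/2, against 6.29, 5.59, 5.38, 6.02 and 4.56 FPKM in controls. The groups did not overlap and the change was −0.47 (SE 0.09, limma adjusted p = 0.00918), but the call was lost with the cortical markers as a covariate (limma adjusted p = 0.112) and with the replicate number as a block (0.062). Mknk1, a kinase of eIF4E, averaged 7.12 ± 1.76 FPKM in R6/2 and 11.2 ± 2.24 FPKM in controls (change −0.60, limma adjusted p = 0.0493). That call was lost with any 1 of 9 libraries left out, R6/2 4 being the exception (limma adjusted p of 0.0502 to 0.112 without the 9). It was also lost with a pseudocount of 5 FPKM (limma adjusted p = 0.0511), no minimum (0.0829), protein-coding rescaling (0.0891), no trend (0.0563), the replicate block (0.0895) and the cortical covariate (change −0.26, 0.656). Mtor itself had a change of −0.04 (limma adjusted p = 0.896). Rptor, of the same list, went the other way from Deptor and Mknk1, with a change of 0.42 that did not pass (limma adjusted p = 0.15). The median change of the list was −0.02.

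Of 15 genes of elongation and termination 1 passed as higher and none as lower, and of 9 mitochondrial translation factors none passed, beside 14.1% of all tested genes called in either direction and 5.0% higher. Eef1e1, whose product is part of the tRNA synthetase complex, had 5.63, 6.79, 4.95, 4.35 and 6.38 FPKM in R6/2, against 3.25, 3.17, 3.48, 3.36 and 3.58 FPKM in controls. The control libraries lay close together and all below the R6/2 libraries, with a change of 0.59 (SE 0.11, limma adjusted p = 0.0064). With the cortical markers as a covariate the call was lost (limma adjusted p = 0.152). The main elongation factor genes Eef1a1, Eef1a2 and Eef2 had changes of 0.17, −0.11 and 0.06, none of which passed.

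Markers of the dissected tissue moved with the genotype. The calls below stand beside 5.0% of all tested genes called higher and 9.11% called lower. The 10 spiny neuron markers were present in all libraries and all fell in R6/2, with a summed 221 to 362 FPKM in R6/2 against 1670 to 2120 FPKM in controls. Cortical excitatory neuron markers summed to 56.3 to 102 FPKM in R6/2 and 26.5 to 55.6 FPKM in controls, with 2 of 6 higher. Astrocyte markers summed to 377 to 482 FPKM in R6/2 and 663 to 733 FPKM in controls (3 of 6 lower), and those of oligodendrocytes to 660 to 1010 FPKM in R6/2 and 1460 to 1630 FPKM in controls (4 of 6 lower). Microglia had 1 of 5 tested markers lower and blood 2 of 3 lower, while no endothelial or choroid plexus marker passed; the choroid plexus sum ran from 26.7 to 457 FPKM in R6/2 and 13.7 to 537 FPKM in controls. The part of these shifts in the initiation factor values was not tested. With the mean of the cortical markers as a covariate, 93 of all genes were called higher and 452 lower. Of the 45 factors 0 passed, as without it. This covariate, centred on the log2 scale, was 0.0105 to 0.821 in R6/2 and −0.845 to −0.0194 in controls. As the groups did not overlap, it cannot be separated from the genotype, and a call lost under it cannot be assigned to the markers. The genotype was checked at Gm12695, the gene at the R6/2 transgene insertion, with 2.29, 1.80, 2.34, 1.74 and 0.699 FPKM in R6/2 against 0.0688 FPKM in Control 1 and 0 in the other 4 controls.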

How the data were processed

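The authors deposited FPKM values per gene and library, made from GRCm38 with the tools STAR (2.4.0), Cufflinks and Cuffdiff, per the submitters' processing notes. Per the labels' protocols, RNA was amplified with NuGEN Ovation RNA-Seq v2 before Nextera library preparation. Annotation, strand setting and scaling between libraries are not stated there, so reads of genes that overlap on opposite strands cannot be told apart. FPKM holds no counts, so sequencing depth is not known. Symbols and sequences came from GENCODE M21, matched by stable Ensembl ID (47220 of 47632). Genes averaging at least 1 FPKM (15905) were tested on log2(FPKM + 1) with limma 3.58.1 in R 4.3.3 (mean-variance trend, empirical Bayes, two-sided, Benjamini-Hochberg 0.05), a procedure tested on simulated data. Ratios of related genes were tested by exact permutation over 9 of 10 listed pairs; the pair with Eif4ebp1 had a gene below the minimum. The members and gene lists were chosen with earlier results of these data known. Values in every library were to be given for the 3 most abundant members, members past the threshold, pairs past their test and Eif2s3x; Eif2s3y, Xist, Gm12695, the eIF2 kinases and list genes past the threshold were named by rule, and others shown in full were chosen after their values were seen. Other pseudocounts, minimums, scalings, weights, covariates, a replicate block and leaving out each library were tried as alternatives.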

Additional observations from a re-analysis of the deposited data

Results flagged for a closer look

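In 114 groups of 5 libraries (the R6/2 and the control values of each named gene), 10 had 1 library whose gap to its nearest neighbour exceeded the 95% critical value of 0.71 of the group's range. Chance flags about 1 in 20 groups. Among R6/2 libraries, Eif5 stood at 28.3 FPKM in R6/2 2 with the other 4 at 23.3 to 24.2. The same library held Eif2b3 at 11.7 FPKM, with the others at 4.9 to 6.36, and was lowest for Eif4e3 at 4.51 FPKM, with the others at 6.56 to 7.31. Eif1ad stood at 5.89 FPKM in R6/2 3 (others 4.67 to 4.9) and Eif6 at 54.4 FPKM in R6/2 1 (others 34.9 to 39.5). In R6/2 5, Eif2d was lowest at 7.13 FPKM (others 10.6 to 11.3) and the kinase gene Eif2ak3 highest at 14.6 FPKM (others 4.23 to 6.0). Among controls, Eif3i stood at 29.3 FPKM in Control 5 (others 20.7 to 22.3), Eif3c at 63.4 FPKM in Control 1 (others 49.9 to 52.0) and Gm12695 at 0.0688 FPKM in Control 1, with the others at 0. Of these genes none passed the limma test in the comparison of all libraries, and Gm12695 lay below the minimum and was not tested.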

How the results depend on the processing

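The count of initiation factors called higher was 0 as reported and 1 with a minimum of 5 FPKM and with array weights (Eif1b each time). It was 8 with protein-coding rescaling and 4 with quantile normalization. With 1 library left out it ran from 0 to 2, and the count called lower from 0 to 1. Over all 15905 tested genes, leaving out 1 library gave 576 to 890 called higher and 1193 to 1518 called lower. The single calls gained were Eif3k without R6/2 1 or Control 1, Eif1b without R6/2 5, Eif2b2 without Control 4, Eif3a and Eif4g3 without Control 5, and Eif5a, lower, without R6/2 4. The median change of the factors moved to 0.17 with rescaling. Over all genes 1520 were called higher with rescaling, 370 with the replicate block and 93 higher with 452 lower under the cortical marker covariate. Same-numbered libraries did not deviate together (correlations of −0.05 to 0.05; R6/2 5 alone matched its own number best). Under the block 975 genes were called lower, no initiation factor passed, and the calls of Eif2ak1 (limma adjusted p = 0.0622), Deptor (0.062) and Mknk1 (0.0895) were missed. The cortical covariate also ended the calls of Eif2ak1 (limma adjusted p = 0.268), Impact (0.0559), Deptor (0.112), Eef1e1 (0.152), Mknk1 (0.656) and Eif2s3y (0.263). Its values did not overlap between the groups, so these losses cannot be assigned to the markers. Of the related pairs 2 passed as reported, 0 with a pseudocount of 5 FPKM (differences −0.36 and −0.36 for Eif1a over Eif1ax and Eif5a over Eif5a2), 0 with the replicate block (−0.52 and −0.46; the smallest sign-flip p is 0.0625, so no pair could pass) and 0 to 2 with 1 library left out (−0.59 to −0.45 and −0.51 to −0.38). The cause of these changes was not tested. Both ratios stayed free of overlap with any 1 library left out, where the exact test moves in coarse steps.

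Of 942 values of single factors under 21 settings 60 had the opposite sign, none with a reported change above 0.174 in size. Outside the settings that leave out a library these were Eif3e at −0.0014 with a pseudocount of 0.1 FPKM; Eif4g2 at 0.0992, Eif4e at 0.0671, Eif2b1 at 0.0438 and Eif3b at 0.0501 with rescaling; and Eif4g2 at 0.1511 and Eif4e at 0.0471 with quantile normalization. Array weights gave Eif4enif1 at 0.0177, Eif3e at −0.0195, Eif4e at 0.0176 and Eif4b at −0.0005. The cortical covariate gave Eif2b5 at −0.2088, Eif4a2 at −0.0119, Eif4a3 at −0.013, Eif4e at 0.0677, Eif3i at −0.006, Eif3f at −0.0034, Eif4b at −0.0377 and Eif4e3 at −0.0456, and the Xist covariate gave Eif3e at −0.0147. With 1 library left out the ranges that crossed 0 were −0.1931 to 0.0627 for Eif2b1, −0.1364 to 0.1472 for Eif2b3, −0.0987 to 0.013 for Eif3b, −0.0735 to 0.1584 for Eif3e, −0.0545 to 0.1437 for Eif3f, −0.1818 to 0.0046 for Eif3j1, −0.0354 to 0.0862 for Eif4a2, −0.0206 to 0.1618 for Eif4a3, −0.043 to 0.055 for Eif4b, −0.1864 to 0.094 for Eif4e, −0.0185 to 0.0746 for Eif4ebp2, −0.2241 to 0.0523 for Eif4enif1, −0.0925 to 0.0229 for Eif4g2 and −0.0262 to 0.1031 for Eif5. The kinase gene Eif2ak3, not among the 45 factors, ranged from −0.0308 to 0.4083. The ranges also crossed 0 for the ratio of Eif4e over Eif4e3 (−0.4405 to 0.014) and the ratio of Eif4g1 over Eif4g3 (−0.1814 to 0.0024).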
